A study of Homo sapiens with 4 samples.

Results

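The distal end of the long arm of human chromosome 2, from 200 to 250 Mb on GRCh38, was examined for a mild run of raised expression in vemurafenib-resistant A375 melanoma cells over parental control cells. Members were the protein-coding genes whose lowest deposited start lay in that interval and whose mean over the 4 libraries was 3 CPM or more. CPM is a gene's count scaled to the total of its library over genes kept by a low-count filter. That total was multiplied by a normalization factor of the library (TMM), 0.971 to 1.046. Of 309 protein-coding genes among 908 identifiers in the interval, 21 were left out by name and 122 lay under 3 CPM, which left 166 members of 11615 protein-coding genes of 3 CPM or more in all. The members began with SPATS2L at position 200305881 and ended with D2HGDH, which starts at 241734602 and ends at 241768816. Members were chosen by position and level, but the interval itself was selected on the fold changes of this same contrast, so medians and shares of positive fold changes are given as a description, with no test. The filter on low counts kept all 166 members for the test of single genes, but 5 reached 3 CPM only in the mean of the resistant libraries and 3 only in the mean of the control libraries.

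A375 is an established human cutaneous melanoma line, and vemurafenib inhibits the mutant BRAF kinase that drives such tumours. The control group comprised 2 libraries of the parental line. The resistant group comprised 2 libraries of A375 cells passed through vemurafenib that was raised every week, doubling from 0.1 µM up to 6.4 µM. Presence of the drug at harvest, clonality of the resistant cells and separate culture of the replicates are not stated in the labels. The sample numbers in the names of both resistant files differ from those in the labels, and each file was used for the record that holds it. The p-values therefore measure only how far these 4 libraries scatter, and that scatter may be technical.

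Total counts ranged from 68022689 to 87178097 per library. Every count of control replicate 1 was even, with 0 odd values, and halving them was tried as an alternative. Of 9 melanoma or neural crest markers, 7 had a mean over 1 CPM. The summed level of the 9 was 1070 to 1630 CPM in the 4 libraries, most of it from SOX10 (704 to 1150 CPM) and ERBB3 (304 to 432 CPM). MITF had 12.3 to 42.2 CPM. The summed levels of fibroblast, keratinocyte, endothelial and leukocyte markers were 10.4 to 14.9, 0.423 to 2.62, 2.30 to 3.47 and 0.28 to 1.21 CPM. The pigment genes were low, and TYR and DCT, which encode melanin enzymes, lay near 0. In bulk RNA such as this, fewer cells that express a gene and less RNA per cell cannot be told apart.

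As background, neighbouring genes on a chromosome need not share a function, but they share their DNA copy number, and in tumour lines a gained or lost stretch can shift the RNA of many of its genes by a similar small factor. Genes can also share a chromatin domain, and each is in addition subject to its own promoter and enhancers. The distal part of 2q carries genes for apical caspases (CASP8, CASP10), the cytosolic isocitrate dehydrogenase IDH1, the circadian repressor PER2 and many housekeeping proteins. The deposited files hold RNA counts and no measure of DNA copy number, which was not analysed here.

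Promoters of 3 members are printed because these genes had some of the larger single differences, against which the small shift of the members' median stands. B3GNT7 was the 1 member past edgeR's single-gene test. IDH1 had the highest fold change among members of 10 CPM or more, and PER2 had the next highest. B3GNT7 encodes a glycosyltransferase that extends poly-N-acetyllactosamine and keratan sulfate chains. Each sequence runs 5′ to 3′ along the gene's strand from 250 bases before to 50 after a RefSeq start, the first listed for the gene (GRCh38.p14). The windows are chr2:231395460-231395759 (plus strand) for B3GNT7, chr2:208254409-208254708 (minus) for IDH1 and chr2:238288561-238288860 (minus) for PER2. The IDH1 and PER2 windows lie inside the deposited spans of these genes, whose upstream ends are at 208266074 and 238290102. Other starts were not examined. Capitals mark, on either strand, the E-box CACGTG, its variant CACGTT, the cAMP element TGACGTCA, the GC box GGGCGG and the CCAAT box CCAAT.
B3GNT7: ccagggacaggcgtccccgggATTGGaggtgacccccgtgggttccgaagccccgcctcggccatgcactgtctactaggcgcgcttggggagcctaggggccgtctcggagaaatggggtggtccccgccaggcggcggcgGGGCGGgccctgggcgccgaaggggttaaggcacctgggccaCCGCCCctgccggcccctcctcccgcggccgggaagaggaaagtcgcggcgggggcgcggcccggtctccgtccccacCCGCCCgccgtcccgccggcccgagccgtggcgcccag
IDH1: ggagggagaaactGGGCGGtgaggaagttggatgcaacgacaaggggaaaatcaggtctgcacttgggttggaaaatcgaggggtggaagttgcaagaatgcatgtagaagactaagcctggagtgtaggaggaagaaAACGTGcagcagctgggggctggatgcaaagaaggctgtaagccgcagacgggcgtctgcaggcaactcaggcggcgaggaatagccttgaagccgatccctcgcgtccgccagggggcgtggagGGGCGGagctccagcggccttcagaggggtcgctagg
PER2: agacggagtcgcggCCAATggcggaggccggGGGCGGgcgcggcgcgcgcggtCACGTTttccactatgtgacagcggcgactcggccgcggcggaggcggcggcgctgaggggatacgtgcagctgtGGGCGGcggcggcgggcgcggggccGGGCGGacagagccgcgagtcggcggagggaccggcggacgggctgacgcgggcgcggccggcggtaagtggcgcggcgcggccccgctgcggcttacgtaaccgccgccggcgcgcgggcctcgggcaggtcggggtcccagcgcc

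The B3GNT7 window held 3 GC boxes and 1 CCAAT box, the IDH1 window 2 GC boxes and 1 CACGTT, and the PER2 window 3 GC boxes, 1 CCAAT box and 1 CACGTT. A RefSeq promoter was matched for 151 of the 166 members. A GC box lay in 76.8% of member promoters, 71.5% of those of expressed protein-coding genes outside the interval (9366 promoters) and 45% of all 35116 promoters. The CACGTG E-box lay in 11.9%, 10.2% and 7.26% of the same sets, its variant CACGTT in 5.3%, 5.98% and 5.34%, the cAMP element in 1.99%, 3.45% and 1.85%, and the CCAAT box in 28.5%, 37.0% and 34.6%. Median GC content was 66.3% in member promoters and 65.7% in expressed genes outside the interval. Against expressed genes elsewhere, the GC box was somewhat more frequent and the CCAAT box less frequent in member promoters, with no test made. A match is a string of letters and describes no binding.

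The centre of the members' fold changes lay slightly above that of other genes, while almost no single member passed the test. The median log2 fold change (resistant over control) of the 166 members was 0.14, or 1.10-fold, with an interquartile range of -0.03 to 0.28. Among 11431 protein-coding genes of 3 CPM or more outside the interval the median was -0.01, with an interquartile range of -0.22 to 0.18. Of the members, 119 (71.7%) had a positive fold change and 47 a negative one, against 48.3% positive outside the interval. Elsewhere on chromosome 2, before 200 Mb, the median of 608 genes was 0.03 and 53.3% were positive. Taken by whole chromosomes without this interval, the share of positive genes ran from 26.1% on chromosome 3 to 60.4% on chromosome 16. The medians of these 2 were -0.35 and 0.08, the lowest and highest. Chromosome 18 had a median of -0.16, with 27.4% of its 168 genes positive. The interval was selected on its fold changes and the chromosomes were not, so the members' 71.7% cannot be ranked against these shares. Among the 10 Mb bins of chromosome 2 before 200 Mb, that from 120 to 130 Mb had the highest share (15 of 20 genes positive). Each of these bins held fewer genes than the interval, and none was selected on its fold changes. The members' share cannot be ranked against these bins either.

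**Figure D1:**
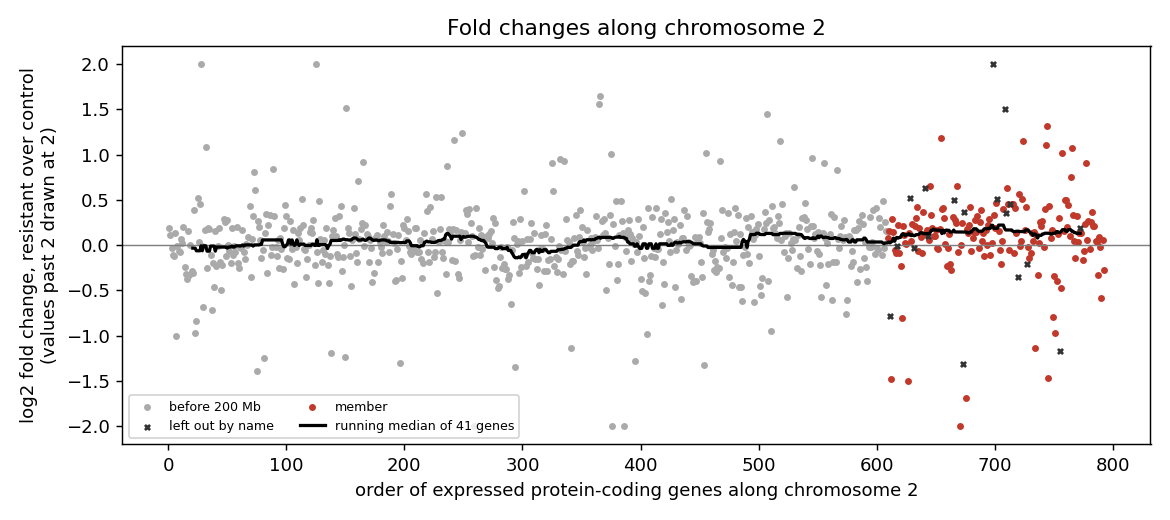
Log2 fold change, resistant over control, of each expressed protein-coding gene against its order along chromosome 2 (points, limited to the range -2 to 2 for display), with members, genes before 200 Mb and genes left out by name marked separately. The black line is the running median of 41 genes; the members' own median is 0.14 and that of the genes before 200 Mb is 0.03.

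The edgeR quasi-likelihood test (Benjamini-Hochberg adjusted over all 24961 genes, threshold 0.05) called 0 members higher and 1 lower, B3GNT7. Over all genes it called 144 higher (0.577%) and 128 lower (0.513%), and among protein-coding genes outside the interval 0.761% higher and 0.551% lower. At an unadjusted edgeR p under 0.05, 14 members were higher (8.43%, against 6.98% outside) and 10 lower (6.02%, against 9.33%). DESeq2 called 6 members in each direction (3.61% each), against 3.35% higher and 3.96% lower outside. Some of these (NGEF, PID1 and SNORC higher, AOX1 and INPP5D lower) reached 3 CPM only in the mean of the group where they were higher. The edgeR counts depended on single libraries: without control replicate 2 they were 11 higher and 9 lower, without control replicate 1 they were 2 and 3, and without either resistant replicate 0 and 0. By either tool the members' share of calls was near that of other genes. In tests on simulated counts, edgeR recovered 55.2% of genes changed 2-fold, and smaller changes, such as the members' median of 1.10-fold, were not simulated.

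Most fold changes of members were small. Of the members, 142 had a log2 fold change within 0.5 of 0. Above 0.5 lay 14 members (8.43%), against 7.98% of genes outside the interval. Below -0.5 lay 10 members (6.02%), against 9.89%. A 2-fold difference or more was reached by 6 members in each direction (3.61% each), against 2.72% higher and 2.3% lower outside. These counts include NGEF, PID1 and SNORC (higher) and AOX1 and INPP5D (lower). Each of those genes reached 3 CPM only in the mean of the group where it was higher, so nothing is read from these counts. Both resistant libraries lay above both controls for 63 members (38.0%, against 22.9% outside), and both lay below for 20 (12%, against 24.6%). The 63 include NGEF, PID1, SNORC and TMEM169, and the 20 include AOX1, INPP5D and TRPM8. Each of these also reached 3 CPM only in the mean of the group where it was higher, so these counts are a description only.

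**Figure D2:**
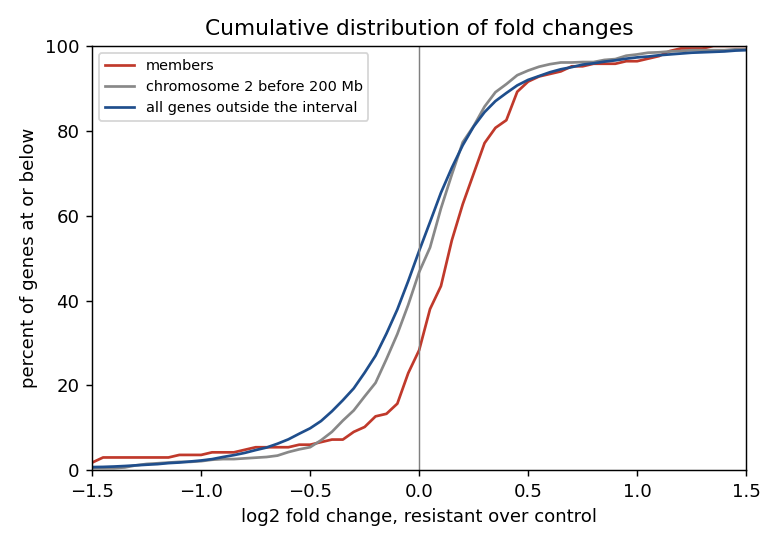
Cumulative percent of genes at or below each log2 fold change (resistant over control) for the members, the genes of chromosome 2 before 200 Mb and the expressed protein-coding genes outside the interval. The members' curve lies to the right of the other curves around 0, with medians of 0.14, 0.03 and -0.01.

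The shift was much smaller than in 2 other stretches of the genome. In the 70 genes of chromosome 7 from 140 to 160 Mb the median log2 fold change was 0.97, with 94.3% positive and 28 called higher by edgeR. In the 330 genes of chromosome 3 from 0 to 100 Mb it was -0.60, with 4.85% positive and 12 called lower. The members' median of 0.14 was nearer to 0 than either, and the differences between these stretches were not tested.

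Each of the 4 comparisons of a resistant with a control library gave the members a median above that of genes outside the interval. On log2(CPM + 0.5), the members' median minus the outside median was 0.17 for resistant replicate 1 over control replicate 1 and 0.13 over control replicate 2. It was 0.17 and 0.12 for resistant replicate 2 over the same controls. The 2 comparisons within a group gave 0.01 (control replicate 2 over 1) and -0.01 (resistant replicate 2 over 1). The interval was selected on the group difference in these same 4 libraries, which favoured raised values between groups but not within them. Neither this contrast nor the counts by gene below are therefore support for a shift. The 4 comparisons between groups share libraries and are not independent. Genes of chromosome 2 before 200 Mb lay 0.02 to 0.04 above the outside median in the same 4 comparisons. Gene by gene, 68 members (41%) lay above the outside median in all 4 comparisons, against 24.3% of outside genes, and 19 (11.4%) lay below in all 4, against 24.7%.

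**Figure D3:**
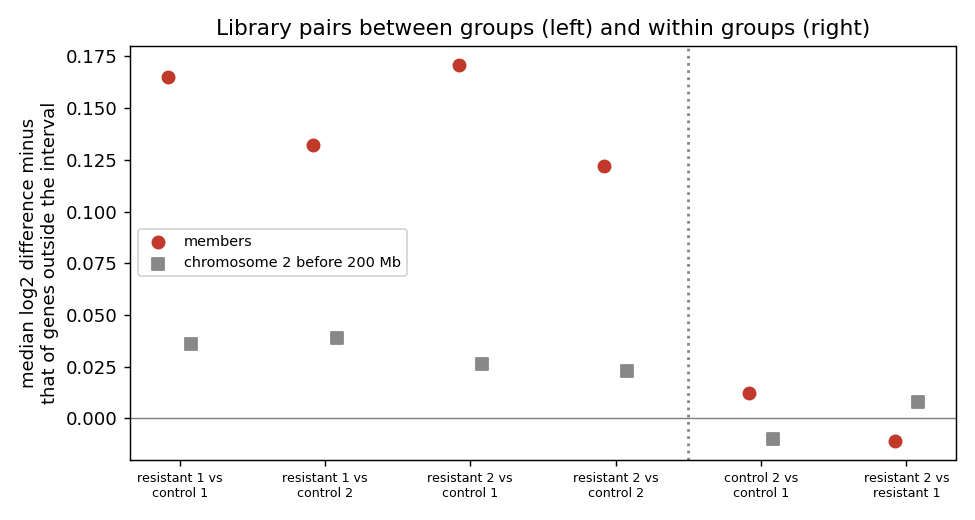
Median log2 difference minus the median of protein-coding genes outside the interval, for each pair of libraries, in members and in genes of chromosome 2 before 200 Mb. The 4 pairs between groups, left of the dotted line, lie at 0.12 to 0.17 for members, and the 2 pairs within groups at 0.01 and -0.01.

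A positive median was seen at each level of expression. The median was 0.21 in the 32 members of 3 to 10 CPM (0.02 outside). It was 0.14 in the 59 of 10 to 30 CPM (-0.03 outside) and 0.10 in the 55 of 30 to 100 CPM (-0.01 outside). In the 20 of 100 CPM or more it was 0.15 (-0.005 outside). The 32 members of 3 to 10 CPM include the 5 that reached 3 CPM only in the mean of the resistant libraries. They also include the 3 that reached it only in the mean of the controls, so nothing is read from their median. Across the 166 members Spearman's rho of the log2 fold change was -0.07 with mean CPM, -0.01 with exonic length and 0.05 with order along the chromosome. These describe genes measured in the same 4 libraries and carry no p.

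Along the chromosome each 10 Mb bin of members had a positive median. It was 0.13 from 200 to 210 Mb (42 members, 31 positive), 0.14 from 210 to 220 Mb (46, 33 positive), 0.42 from 220 to 230 Mb (15, 12 positive), 0.13 from 230 to 240 Mb (42, 29 positive) and 0.06 from 240 Mb on (21, 14 positive). The bin from 220 to 230 Mb was thin, and its median fell to 0.26 without control replicate 1 and to 0.28 without resistant replicate 2. The median from 210 Mb was 0.089 without resistant replicate 2. The median from 230 Mb was 0.20 without control replicate 2, and that from 240 Mb was 0.13 without resistant replicate 1. Without the 15 members from 220 to 230 Mb the median of the rest was 0.13. The 20 bins before 200 Mb had medians from -0.08 to 0.18, the highest in 21 genes from 160 to 170 Mb, so single bins as high as most of the members' bins also occurred there. Taken in order in blocks of 20, the members gave medians of 0.06, 0.17, 0.13, 0.14, 0.26, 0.14, 0.16 and 0.13. The last 6 members, from BOK to D2HGDH, had a median of -0.15 with 2 positive.

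At the left border of the interval, low and positive values stood on both sides. The last 3 qualifying genes before 200 Mb, C2orf69, TYW5 and MAIP1, had log2 fold changes of -0.03, 0.26 and 0.16. The first 3 members after it, SPATS2L, KCTD18 and AOX1, had 0.08, 0.16 and -1.47. Moving the left border outward or inward gave a median of 0.13 or 0.14. At the other edge of the rule, the level, the members just above 3 CPM were NGEF (3.13 CPM, log2 fold change 1.32), TRPM8 (3.23 CPM, -0.34) and FBXO36 (3.29 CPM, 0.42), and the genes just below were UNC80 (2.66 CPM, 2.07), CCL20 (2.61 CPM, 1.46) and DOCK10 (2.55 CPM, 0.52).

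Among the 166 members B3GNT7, the glycosyltransferase named above (ENSG00000156966.7, positions 231395710 to 231401164, plus strand), was the 1 past the edgeR threshold, and it was lower in the resistant libraries. Its level was 62.7 and 64.2 CPM in the controls and 30.5 and 27.3 CPM in the resistant libraries. The groups did not overlap, with means of 63.4 ± 1.03 and 28.9 ± 2.26 CPM (SD, n = 2 each). On the log2 scale the difference was -1.13 ± 0.17 (SE), 2.19-fold lower, and its edgeR adjusted p was 0.0342. Without resistant replicate 1 the edgeR adjusted p was 0.0648, and without resistant replicate 2 it was 0.195, with log2 fold changes of -1.21 and -1.05.

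The members with the highest fold changes did not pass the edgeR test. IDH1 (ENSG00000138413.14, positions 208236229 to 208266074, minus strand) converts isocitrate to 2-oxoglutarate in the cytosol with formation of NADPH. It had 54.2 and 116 CPM in the controls and 181 and 204.9 CPM in the resistant libraries. The groups did not overlap, but the controls differed from each other by about as much as the nearest libraries of the 2 groups did. Its log2 fold change was 1.18 ± 0.33 (edgeR adjusted p 0.153, DESeq2 adjusted p 0.00994), and it ranged from 0.73 to 1.83 as each library was left out.

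KIF1A, a kinesin motor that carries synaptic vesicle precursors and dense-core vesicles, had 44.5 and 44.2 CPM in the controls and 76.1 and 89.7 CPM in the resistant libraries. The groups were well apart, with 0.90 ± 0.17 on the log2 scale (edgeR adjusted p 0.0569). PER2, a repressor in the circadian feedback loop (positions 238244044 to 238290102, minus strand), had 7.13 and 9.42 against 12.5 and 22.3 CPM. Its groups did not overlap, and 1 resistant library was far higher than the other; the log2 fold change was 1.07 ± 0.31 and the edgeR adjusted p 0.170. HES6, a neighbour of PER2 that encodes a helix-loop-helix transcription regulator, had 8.27 and 13.7 against 15.9 and 21.2 CPM and an edgeR adjusted p of 0.299.

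RAB17, a small GTPase of endosomal traffic, showed how far 1 library can carry a fold change. It had 10.2 and 18.3 CPM in the controls and 15.1 and 42.6 CPM in the resistant libraries, so the groups overlapped. Its log2 fold change of 1.01 dropped to 0.08 without resistant replicate 2. The other members among the 10 highest of 10 CPM or more were ZDBF2 (0.66), RHBDD1 (0.57), RAMP1 (0.50), GMPPA (0.47) and WDFY1 (0.46). Of lower level, NGEF, a guanine nucleotide exchange factor, had 1.87 and 1.71 against 4.49 and 4.46 CPM and differed by 1.32 ± 0.28 on the log2 scale (edgeR adjusted p 0.0783). PID1, an adaptor with a phosphotyrosine-binding domain, had 2.29 and 2.09 against 4.57 and 5.14 CPM, with 1.15 ± 0.27 and an edgeR adjusted p of 0.107. DESeq2 called IDH1, PID1, SNORC, NGEF, PER2 and KIF1A higher. Of these, NGEF, PID1 and SNORC reached 3 CPM only in the mean of the resistant libraries, as did TMEM169 and FBXO36, so the rule on level favoured a higher value there and nothing is read from their calls or separation.

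Members with lower levels in the resistant libraries lay among the positive ones all along the interval. MARCHF4, a membrane-bound ubiquitin ligase, had the lowest fold change, with 30.1 and 18.6 CPM in the controls and 1.62 and 9.30 CPM in the resistant libraries. Its resistant libraries were far apart, and the difference of -2.15 ± 0.67 on the log2 scale did not pass (edgeR adjusted p 0.200). MPP4, a scaffold protein of the membrane-associated guanylate kinase family, had 20.7 and 15.1 against 5.09 and 7.55 CPM. Its groups did not overlap, the log2 fold change was -1.5 ± 0.28 and the edgeR adjusted p 0.0563.

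TNS1, a focal adhesion protein, had 15.1 and 6.75 against 3.77 and 3.00 CPM, with an edgeR adjusted p of 0.0982. AOX1, an aldehyde oxidase, had 8.75 and 5.69 against 2.14 and 3.05 CPM, with an edgeR adjusted p of 0.0890. INPP5D, the lipid phosphatase SHIP1, had 8.33 and 3.14 against 1.63 and 2.49 CPM, with an edgeR adjusted p of 0.217. In each of these 3 the groups did not overlap, as was so (resistant lower) in 12% of members and 24.6% of genes outside the interval. The controls of TNS1 and INPP5D were more than 2-fold apart. Others among the 10 lowest members of 10 CPM or more were HJURP (-0.79), which deposits the centromeric histone CENP-A, DTYMK (-0.59), which phosphorylates dTMP, MLPH (-0.48), SH3BP4 (-0.40), PTMA (-0.34) and BOK (-0.33). DESeq2 called AOX1, CASP10, MPP4, TNS1, B3GNT7 and INPP5D lower. Of these, AOX1 and INPP5D, like TRPM8, reached 3 CPM only in the mean of the controls. The rule on level favoured a lower resistant value there, and nothing is read from their calls or separation.

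**Figure D4:**
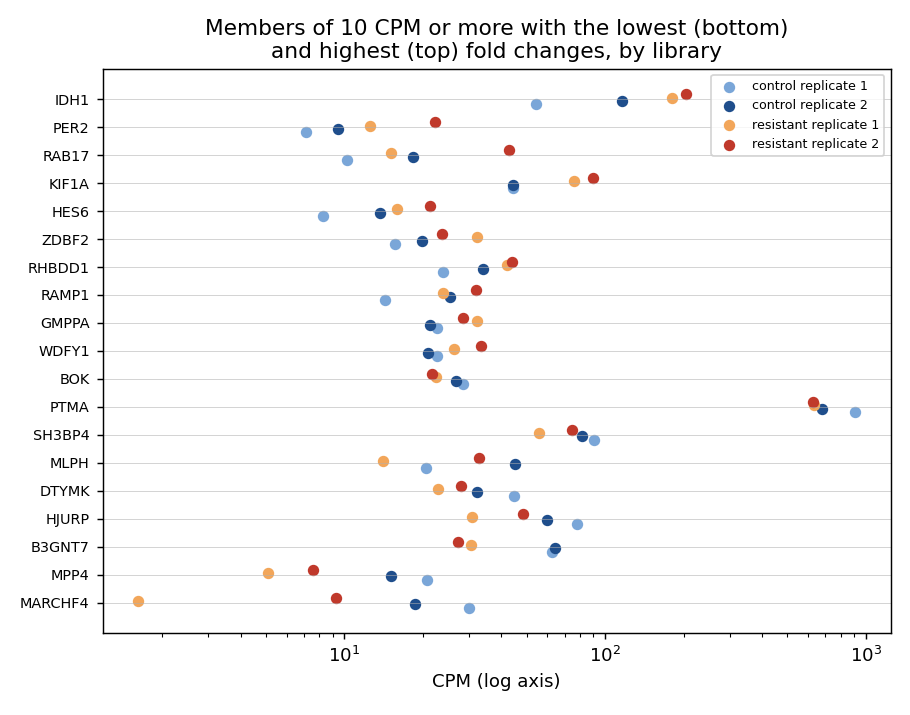
CPM (log axis) in each library, 1 point per library, for the members of 10 CPM or more with the highest and lowest fold changes. IDH1 runs from 54.2 CPM in control replicate 1 to 204.9 CPM in resistant replicate 2, and B3GNT7 from 62.7 and 64.2 CPM in the controls to 30.5 and 27.3 CPM in the resistant libraries.

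By function, the small shift was found in most groups of members, and the lists were few in members and chosen with the results known. None but the receptor and secreted list held a member called by edgeR, and there it was B3GNT7. In the translation and RNA list, 15 of 18 members were positive, 14 had both resistant libraries above both controls and 0 had them below, and the median was 0.20. Such separation was seen in 38.0% (higher) and 12% (lower) of all members, and in 22.9% and 24.6% of genes outside the interval. FARSB, a subunit of phenylalanyl-tRNA synthetase, was highest with 55.0 and 66.7 against 74.5 and 91.7 CPM (log2 fold change 0.45), and MRPL44, a mitochondrial ribosomal protein, was lowest at -0.08. WDR12, a ribosome assembly factor, had 0.42, and GIGYF2, a translational repressor, had 62.9 and 57.0 against 79.6 and 79.1 CPM (0.40). NCL, the nucleolar protein nucleolin, had 545 and 455 against 562 and 515 CPM, and its groups overlapped.

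In the ubiquitin, proteasome, COP9 signalosome and SUMO list, 17 of 18 members were positive with a median of 0.17, and 7 had both resistant libraries above both controls, a share near the 38.0% of all members. RHBDD1, an intramembrane protease, was highest with 23.95 and 34.1 against 42.1 and 44.0 CPM (0.57). BARD1, the partner of BRCA1, was the 1 negative member at -0.27. CUL3, a ubiquitin ligase scaffold, had 51.3 and 46.7 against 52.8 and 54.9 CPM (0.14). In the autophagy and endolysosome list 8 of 10 were positive with a median of 0.18, from RETREG2 at -0.12 to WDFY1 at 0.46. ATG16L1, which directs LC3 lipidation, had 32.2 and 41.3 against 51.4 and 47.6 CPM.

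The death receptor and BCL2-type genes went the other way in 3 of 4 members, with a median of -0.28. CASP10 had 8.66 and 7.63 CPM in the controls and 4.53 and 4.77 CPM in the resistant ones, and it differed by -0.81 on the log2 scale (edgeR adjusted p 0.178, DESeq2 adjusted p 0.0358). CFLAR, the inhibitory homologue of these caspases, had 32.8 and 31.0 against 27.95 and 26.5 CPM (-0.23), and BOK had -0.33. CASP8 alone of the 4 was positive, with 38.7 and 47.2 against 48.9 and 50.6 CPM (0.21). In all 4 genes the groups did not overlap, as they did not in 22.9% (higher) and 24.6% (lower) of genes outside the interval, and CFLAR, CASP10 and CASP8 are direct neighbours on the chromosome. None of the 4 passed the edgeR test.

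The DNA repair, chromosome and chromatin list showed no such shift, with 8 of 14 positive and a median of 0.01. It ran from HJURP, with 77.8 and 59.9 against 31.0 and 48.5 CPM, to HDAC4, a class IIa histone deacetylase, with 17.9 and 26.0 against 28.9 and 26.0 CPM. XRCC5, the Ku80 subunit of end joining, had 328 and 238 against 269 and 269 CPM, with overlapping groups. Likewise 9 of 17 members of the kinase, phosphatase and lipid signalling list were positive, with a median of 0.02. Metabolism and mitochondria had 13 of 22 positive and a median of 0.12, from AOX1 at -1.47 to IDH1 at 1.18. ATIC, which completes purine synthesis, had 152 and 168 against 169 and 229 CPM (0.31).

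Transcription factors and clock genes were positive in 8 of 10 (median 0.14), and CREB1, the cAMP response factor, had 33.7 and 34.3 against 35.7 and 37.5 CPM (0.10). Cytoskeletal members were positive in 8 of 11 (0.18), traffic, motor and cilia members in 12 of 15 (0.13) and receptors, ligands, matrix and secreted proteins in 5 of 8 (0.10). SERPINE2, a secreted inhibitor of thrombin and other serine proteases, was among the most abundant members, with 575 and 1572 CPM in the controls and 1192 and 1660 CPM in the resistant libraries. Control replicate 1 was low, the groups overlapped, and without it the log2 fold change of 0.41 turned to -0.14. The 21 members in no list had a median of 0.26 with 16 positive. No list was compared with another by a test.

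**Figure D5:**
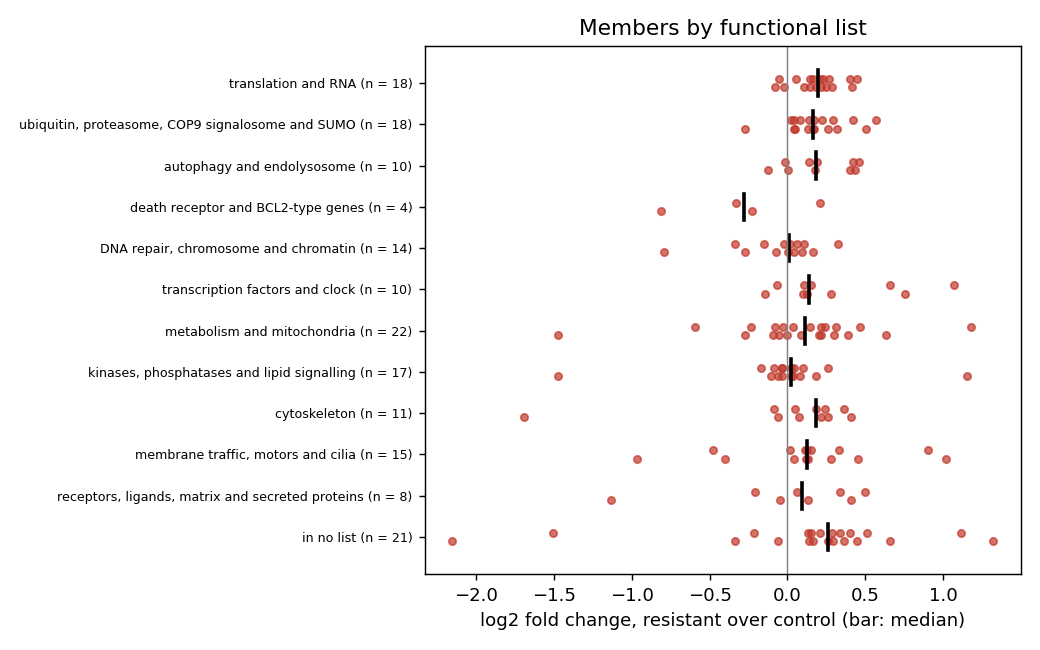
Log2 fold change, resistant over control, of each member (points) by functional list, with the number of members and the median of each list. Medians run from -0.28 in the 4 death receptor and BCL2-type genes to 0.20 in the 18 translation and RNA genes, and 0.26 in the 21 members in no list.

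Levels differed widely between members. Per kilobase of exon, PTMA (prothymosin alpha), EEF1B2 (a subunit of elongation factor 1) and RPL37A (a ribosomal protein) were highest with mean levels of 210, 208 and 197 CPM per kb, the median was 4.43 and TRPM8 was lowest at 0.408. PTMA had 906.5 and 677 against 631 and 625 CPM, so it was lower in both resistant libraries, while RPL37A had 1077 and 1158 against 1316 and 1334 CPM. Both have processed pseudogenes elsewhere in the genome, as has EEF1B2, and reads that map to several places were dropped, so their levels are uncertain. Of the members, 14 share 20% or more of their exonic bases with another gene, RAPH1 the most at 76.3%. Without those 14 the median of the rest was 0.14.

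Genes of the interval that are not members were mixed. The 18 genes left out by name that reached 3 CPM had a median log2 fold change of 0.27 with 11 positive (0.17 without control replicate 1, 0.18 without either resistant replicate), and putting them back gave 184 genes with a median of 0.14 and 70.7% positive. The 17 protein-coding genes of 1 to 3 CPM had a median of 0.58 with 12 (70.6%) positive, against 0.10 and 56.6% positive for 1234 such genes elsewhere. Without resistant replicate 1 the median of the 17 was 0.22. Among them UNC80, which regulates a sodium leak channel, had 0.838 and 1.20 against 4.02 and 4.56 CPM (log2 fold change 2.07, edgeR adjusted p 0.0393). DNER, a Notch ligand, had 1.12 and 0.970 against 3.76 and 4.03 CPM (1.90, edgeR adjusted p 0.0411). Both were higher in the resistant libraries, while C2CD6 (log2 fold change -1.34) and CTLA4 (-1.27) were lower. In each of these genes the groups did not overlap. Of the 17, 10 did not overlap with resistant higher and 2 with resistant lower, against 372 and 268 of the 1234 elsewhere. Among those counted, WNT6 and GPBAR1 reached 1 CPM only in the mean of the resistant libraries. CTLA4 reached it only in the mean of the controls. The limits on level favoured these directions, so nothing is read from the counts of separation or from that of CTLA4. The edgeR test called 2 of the 17 higher and 0 lower, against 31 and 15 of the 1234. The 22 genes of 1 CPM or more that are not annotated as protein coding had a median of 0.03 with 12 positive, against 0.02 and 52.1% positive elsewhere. Leaving out resistant replicate 2 gave -0.041, and leaving out control replicate 2 gave 0.23.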

How the data were processed

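PolyA-selected, strand-specific, paired-end RNA-seq of 2 control and 2 resistant libraries was used. The authors deposited raw counts per gene, made with featureCounts 2.0.0 against GENCODE release 42, per the file headers. At that program's defaults, to which the recorded command adds only file names, strand was ignored, mates were counted singly and reads mapping to several places or genes were dropped, so a gene and its antisense partner cannot be told apart. STAR, featureCounts, DESeq2 and GRCh38 are named in the submitters' processing notes. Of 62649 identifiers, 62625 matched a symbol and 58225 had their type in GENCODE release 29, which was used for want of release 42.

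CPM was computed from the deposited counts, with library totals over kept genes multiplied by their TMM factors. Genes kept by filterByExpr (24961) were scaled by TMM, and the groups were compared by the quasi-likelihood F test of edgeR without covariates, two-sided, Benjamini-Hochberg adjusted (R 4.3.3, edgeR 4.0.16, limma 3.58.1; DESeq2 1.42.0 as an alternative). The biological coefficient of variation was 25.5%. The edgeR step was tested on simulated counts of 23863 genes, where it called 37 of 67 genes at 2-fold, 63 of 67 at 4-fold and all 66 at 8-fold. A count of 3 is 0.0344 to 0.0441 CPM on total counts without the TMM factor, which covers counting error only. Comparisons of library pairs used log2(CPM + 0.5).

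Named genes were members past the threshold, the 10 highest and 10 lowest of 10 CPM or more, 13 fixed genes, the extremes of each functional list and the genes at the borders of the rule; WDR12, GIGYF2, ATG16L1, RPL37A, EEF1B2, RAPH1, SNORC, TMEM169, UNC80 and DNER were named after their values were seen. Some named members are not reported here. Members and lists were chosen with earlier results of these data known. A deposited table of fold changes that names no comparison, and the sorafenib, pioglitazone and glycan experiments, were not used here.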

Additional observations from a re-analysis of the deposited data

How the results depend on the processing

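The members' median log2 fold change of 0.14 stayed between 0.10 and 0.17 over every alternative tried: each library left out, DESeq2, RLE factors, library totals alone, control replicate 1 halved, no low-count filter, the replicate block, member minima of 1 and 10 CPM, the left border moved either way, left-out genes put back, ratios of group means, centring on genes elsewhere, and, added after seeing the data, without members from 220 to 230 Mb or sharing exonic bases. Minus the median outside, it was 0.13 to 0.18 under the 10 alternatives to the fit. The share of positive members was 63.9% to 72.3% with a library left out, lowest without control replicate 2. Leaving out a library moved the bin medians to 0.12 to 0.15 (from 200 Mb), 0.089 to 0.17 (from 210 Mb), 0.26 to 0.54 (from 220 Mb), 0.084 to 0.20 (from 230 Mb) and 0.046 to 0.13 (from 240 Mb); the first was 0.15 with library totals alone and 0.15 with no filter. It moved interval genes of 1 to 3 CPM to 0.22 to 0.88, those left out by name to 0.17 to 0.31 and those not protein coding to -0.041 (without resistant replicate 2) to 0.23.

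Counts of calls moved far more. Members called higher (0) became 6 with DESeq2, 8 with no filter, 1 with library totals alone, 2 at a minimum of 1 CPM, 1 with left-out genes put back and 0 to 11 with a library left out. Members called lower (1) became 6 with DESeq2, 8 with no filter, 2 with control replicate 1 halved and 0 to 9 with a library left out. Over all genes, 144 higher and 128 lower became 621 and 700 with DESeq2, 905 and 961 with no filter, and 7 to 1146 and 9 to 1020 with a library left out, the fewest without resistant replicate 2 and the most without control replicate 2. The cause was not tested.

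With the replicate block 33 genes were called higher and 31 lower over all genes, with 0 members in either direction (B3GNT7 adjusted p 0.0696 by edgeR). Replicate numbers did not pair the libraries: the correlation of same-numbered deviations was 0.00219 over 10089 genes. Of 430 alternative values of 43 named members, 10 in 7 genes changed sign, all with a library left out. Over those fits NCL ran from -0.013 (without control replicate 2) to 0.24, SERPINE2 from -0.14 (without control replicate 1) to 1.31, XRCC5 from -0.28 to 0.18 and MRPL44 from -0.32 to 0.20 (both highest without control replicate 1). RETREG2 ran from -0.33 to 0.063 (without resistant replicate 2; 0.034 without control replicate 1), MLPH from -1.22 to 0.20 (without control replicate 2; 0.015 without resistant replicate 1) and TWIST2 from -0.34 to 0.098 (without control replicate 1; 0.036 without resistant replicate 1).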
